A study of Mus musculus with 18 samples.

Results

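The 10 genes described here are the YAP/TAZ effectors Yap1 and Wwtr1 (which encodes TAZ), their DNA-binding partners Tead1 and Tead3, the target genes Ccn1, Ccn2, Ankrd1, Amotl2 and Ajuba, and the kinase gene Lats2. They were chosen by name, and all 10 were found among the 32285 genes of each mRNA matrix. Single cells came from mouse back skin after surgery in which the skin was opened near the tail and a path was made under it up to the neck. The expanded arm received a hydrogel expander, which stretches the overlying skin as it swells, and the control arm had the same operation without an expander. Each arm gave 5 mRNA libraries of sorted live cells: 2 from day 1, 2 from day 2 and 1 from day 4, with a control and an expanded library in each day and sequencing round. The mice of an arm and round were pooled in a tube before capture, so a library holds several animals, and strain, age and sex were not given in the sources used here. The control arm therefore carries the wound of the operation but no implant, and no group without surgery was analysed here.

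YAP and TAZ are transcriptional coactivators that carry mechanical and cell-contact signals to the nucleus. The kinases LATS1 and LATS2 phosphorylate them, which holds them in the cytoplasm and leads to their degradation, and on a stiff or stretched substrate they enter the nucleus and bind TEAD factors. In skin they are known for their part in the growth of basal keratinocytes, in wound repair and in the contractile state of fibroblasts. Ccn1 and Ccn2 encode secreted matricellular proteins, Ankrd1 a stress-responsive ankyrin-repeat protein, Ajuba a LIM protein of cell junctions that binds LATS kinases, and Amotl2 an angiomotin that holds YAP at junctions. Amotl2 and Lats2 are themselves YAP/TAZ targets and act as feedback inhibitors. The activity of YAP and TAZ is set mostly at the protein level, which RNA counts do not measure.

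The bases before the start sites of these genes were searched because TEAD factors bind a short sequence found at many YAP/TAZ targets. Promoter windows from RefSeq (build GRCm38.p6) matched 8 of the 10 members, Tead1 and Ccn2 having no entry in the table used. In the 250 bases before a start site, the TEAD motif GGAATG or its reverse complement CATTCC occurred in 7 of these 8, all but Lats2. It occurred in 14.4% of 27025 gene symbols with a window of the same length. A window with 2 or more copies was found for 3 members, Tead3, Ankrd1 and Ajuba, against 1.18% of symbols. The CArG box, the site of serum response factor, was in none of the 8 against 1.62% of symbols. A match is a description of the sequence and not evidence of binding. Windows of 30 bases are shown for the members that were called between arms in at least 1 class and hold the motif, each 5′ to 3′ on the strand of its gene with the motif in capitals.
Wwtr1: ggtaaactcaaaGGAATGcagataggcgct
Ankrd1, first copy: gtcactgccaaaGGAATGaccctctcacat
Ankrd1, second copy: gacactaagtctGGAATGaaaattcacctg
Ajuba, first copy: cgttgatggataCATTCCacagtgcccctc
Ajuba, second copy: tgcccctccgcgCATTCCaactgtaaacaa
Amotl2: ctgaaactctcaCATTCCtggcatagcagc
Ccn1: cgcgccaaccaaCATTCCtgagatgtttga
The Wwtr1 window lies on the minus strand at chr3:57576029-57576058, between genes, with the motif 136 bases before the start. The Ankrd1 windows lie on the minus strand at chr19:36120037-36120066 and chr19:36119950-36119979, 210 and 123 bases before a RefSeq start and inside an exon of a longer annotated Ankrd1 transcript. The Ajuba windows overlap each other on the minus strand at chr14:54577830-54577859 and chr14:54577808-54577837, in sequence between genes, with the motif 186 and 164 bases before the start. The Amotl2 window is on the plus strand at chr9:102717727-102717756, in an exon of Amotl2 and 65 bases before the start used. The Ccn1 window is on the minus strand at chr3:145650071-145650100, between genes and 103 bases before the start.

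After filtering, 45488 cells remained, 28452 from control and 17036 from expanded libraries, and the libraries held between 17726739 and 75470722 gene UMIs. The median UMIs per cell ran from 6321.5 to 12755 over libraries. Clustering gave 30 clusters, and 38897 cells fell into 15 classes named from marker genes, while 6 clusters with 6591 cells stayed unnamed. Libraries shared at most 23 cell barcodes, 0.377% of the smaller library. For comparisons between arms, UMIs were summed per class and library and tested with edgeR, with day as a covariate and p-values adjusted over all genes tested in that class. A value tested between arms is a normalised CPM. This is the count divided by the class total and set to a common scale (CPM) after scaling by trimmed mean of M-values (TMM). Without that scaling, the median log2 ratio of expanded to control over all tested genes would shift to 0.25 in fibroblast-like cells and to 0.11, 0.12 and 0.14 in mural-like, endothelial-like and macrophage or monocyte-like cells, so the changes below are relative to the typical gene. Since libraries are pools of mice, p-values measure the spread between libraries. Where the libraries of the arms are said not to overlap, the share of all genes without overlap is not given, so this is a description only.

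The levels of the 10 genes by cell class are given first, as CPM of the summed counts, mean ± SD over libraries with at least 20 cells of the class (n = 5 control libraries, or 4 for basal keratinocyte-like, hair follicle keratinocyte-like, Schwann-like and melanocyte-like and 3 for dermal papilla-like cells). Classes were made from these same cells, so differences between them are descriptive. Yap1 (ENSMUSG00000053110, chr9:7931999-8004596, minus strand) was spread evenly over the structural cells. In control libraries it ranged from 43.2 ± 2.03 CPM in melanocyte-like cells to 116 ± 16.7 CPM in lymphatic endothelial-like cells. Between them, in falling order, lay mural-like (88.7 ± 23.5), endothelial-like (85.5 ± 19.0), dermal papilla-like (74.5 ± 16.8), basal (70.1 ± 17.5), hair follicle (69.3 ± 12.3) and suprabasal keratinocyte-like (62.6 ± 16.3), Schwann-like (51.0 ± 8.60) and fibroblast-like cells (50.5 ± 7.09), and neighbours in this order did not differ beyond their spread. In immune classes of either arm it stayed between 0 and 8.48 CPM. Lymphatic endothelial-like cells were not among the classes tested between arms, and their values are given without a test. They are CPM without TMM scaling, and here too no share of all genes without overlap is given. There, Yap1 was 101, 139, 104, 106 and 128 CPM in control and 63.7, 79.3, 74.5, 69.4 and 59.6 CPM in expanded libraries, in order of day and round, and every expanded library was below every control library. Wwtr1 (ENSMUSG00000027803, chr3:57455649-57575910, minus strand) was led among named classes by the vascular ones, with 409 ± 39.2 CPM in lymphatic and 407 ± 31.6 CPM in blood endothelial-like control cells. These did not overlap the dermal papilla-like cells, the next named class, at 259 ± 52.1 CPM. An unnamed cluster led by Fmod, Coch, Kera and Tnmd had 336 ± 44.4 CPM, and its highest control library, at 380.0 CPM, overlapped the endothelial classes. Mural-like cells had 169.9 ± 17.3, fibroblast-like cells 145 ± 14.6 and basal keratinocyte-like cells 91.3 ± 35.4 CPM of Wwtr1, while among immune classes mast-like cells had the most, 47.5 ± 21.0 CPM. In lymphatic endothelial-like cells Wwtr1 ran from 354 to 464 CPM in control and from 251 to 339 CPM in expanded libraries, again without overlap.

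The TEAD partners differed in where they were expressed. Tead1 (ENSMUSG00000055320, chr7:112679318-112906807, plus strand) was highest in Schwann-like cells at 262 ± 25.1 CPM in control and 274 ± 62.6 CPM in expanded libraries. The next in control libraries was the unnamed cluster led by Fmod and Coch, at 124 ± 7.33 CPM. Dermal papilla-like cells at 103 ± 22.2 and fibroblast-like cells at 90.0 ± 11.1 CPM followed, all far below the Schwann-like range. Its lowest control level among structural classes tested between arms was 44.9 ± 8.72 CPM, in suprabasal keratinocyte-like cells. Tead3 (ENSMUSG00000002249, chr17:28331671-28350817, minus strand) was highest in mural-like cells at 37.8 ± 6.52 CPM and had 19.1 ± 5.15 CPM in basal keratinocyte-like cells. It was nearly undetected in endothelial-like cells at 1.48 CPM and lymphatic endothelial-like cells at 3.95 ± 4.27 CPM.

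The targets were each led by other classes. Ccn1 (ENSMUSG00000028195, chr3:145646976-145649981, minus strand) reached 1685 ± 281 CPM in dermal papilla-like and 1411 ± 168 CPM in lymphatic endothelial-like control cells, which overlapped each other. It was 1013 ± 225 CPM in basal keratinocyte-like and 1013 ± 166 CPM in fibroblast-like cells, but 282 ± 45.3 CPM in mural-like and 159 ± 27.4 CPM in endothelial-like cells. Ccn2 (ENSMUSG00000019997, chr10:24595442-24598683, plus strand) was highest in basal keratinocyte-like cells in control libraries, at 329 ± 210.4 CPM in control and 328 ± 79.3 CPM in expanded libraries. In expanded libraries it was exceeded by the means of mural-like cells, at 147 ± 212 CPM in control and 356 ± 189 CPM in expanded libraries, and an unnamed cluster led by Lrrc15, Foxd1, Mmp11 and Postn, at 167 ± 89.5 and 421 ± 209 CPM. Lymphatic endothelial-like cells had 14.8 to 56.9 CPM of Ccn2 in control and 54.8 to 130.2 CPM in expanded libraries, overlapping narrowly at a control library of 29 cells. Ajuba (ENSMUSG00000022178, chr14:54567472-54577558, minus strand) was a keratinocyte gene here, with 32.3 ± 9.95 CPM in basal, 22.5 ± 7.91 in suprabasal and 15.3 ± 4.00 CPM in hair follicle keratinocyte-like control cells. Its other clear site was mural-like cells, at 11.1 ± 2.61 CPM in control and 25.5 ± 9.49 CPM in expanded libraries. Amotl2 (ENSMUSG00000032531, chr9:102716672-102733418, plus strand) was highest in an unnamed cluster led by the connective-tissue genes Fmod, Coch, Kera and Tnmd, at 86.3 ± 23.3 CPM in control libraries, and among named classes in lymphatic endothelial-like cells, at 66.7 ± 26.5 CPM. Ankrd1 (ENSMUSG00000024803, chr19:36111961-36120099, minus strand) was close to absent from the named classes outside the vessels: mural-like cells had 5.32 ± 8.18 CPM in control and 30.1 ± 17.2 CPM in expanded libraries, and lymphatic endothelial-like cells 2.69 ± 6.01 and 9.62 ± 13.0 CPM.

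Lats2 (ENSMUSG00000021959, chr14:57689662-57758388, minus strand) had a distribution of its own. It was as high in most immune classes as in stroma, with 101 ± 30.1 CPM in T cell-like, 75.2 ± 24.5 in dendritic-like and 71.9 ± 21.0 CPM in macrophage or monocyte-like control cells. In stroma it was 106 ± 25.6 CPM in the unnamed cluster led by Fmod and Coch and 46.3 ± 8.71 CPM in fibroblast-like control cells. Epithelial levels were lower, at 24.9 ± 3.82 CPM in basal, 9.45 in suprabasal and 6.94 CPM in hair follicle keratinocyte-like control cells.

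**Figure D1:**
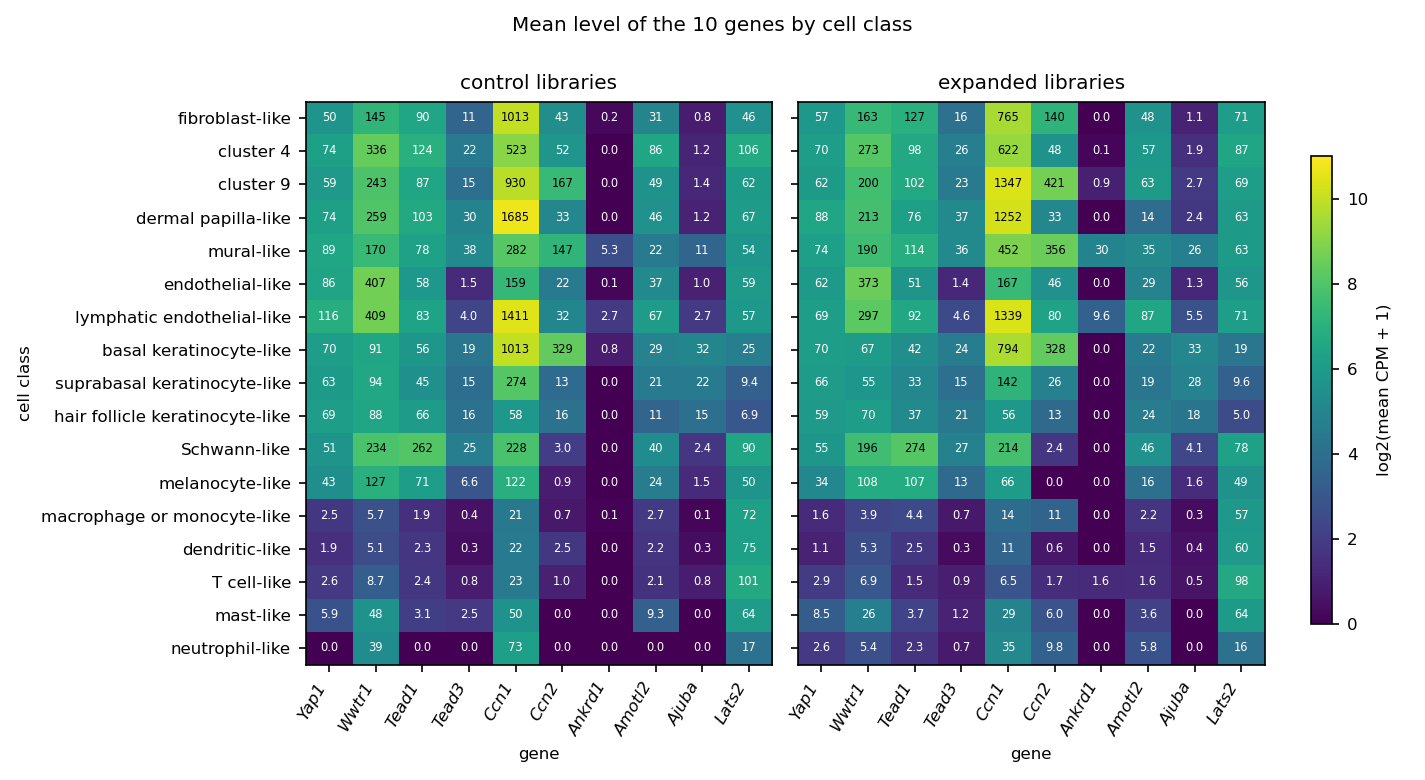
Heat maps of mean CPM of the 10 genes (columns) in 15 named classes and 2 unnamed clusters (rows), for control libraries on the left and expanded libraries on the right, with colour on a log2(CPM + 1) scale and the mean CPM printed in each cell. Yap1, Wwtr1, Tead1 and Ccn1 are bright in the structural classes and dark in the immune ones, Lats2 is not, and Ankrd1 stands out from 0 almost only in mural-like and lymphatic endothelial-like cells.

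Over 131 sums of a class in a library, Pearson's r of log2(CPM + 1) described how alike these profiles were. The sums of a library share its depth and handling and the sums of a class share its identity, so r mainly reflects differences between classes. Yap1 followed Tead1 (r 0.890), Amotl2 (0.887) and Wwtr1 (0.870), while Ccn1 and Ccn2 were less alike (0.715). Lats2 had r between −0.466 (with Ajuba) and 0.162 (with Ankrd1) with the other members. Among 10935 genes with a mean of at least 5 CPM, the nearest to Tead1 were Mpdz (0.947), Parva (0.937) and Cttn (0.915). The nearest to Yap1 were Rbfox2 (0.919), Osmr (0.919) and Angptl4 (0.903), and to Wwtr1 Cavin3 (0.908), Cdc42bpa (0.898) and Arhgef12 (0.897). Cavin3 was also nearest to Ccn1 (0.867), while Trabd2b (0.763) led for Ccn2, Kank1 (0.844) for Ajuba, Map1lc3a (0.874) for Tead3, Yap1 itself for Amotl2, Serinc1 (0.779) for Lats2 and Dmp1 (0.629) for Ankrd1.

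**Figure D2:**
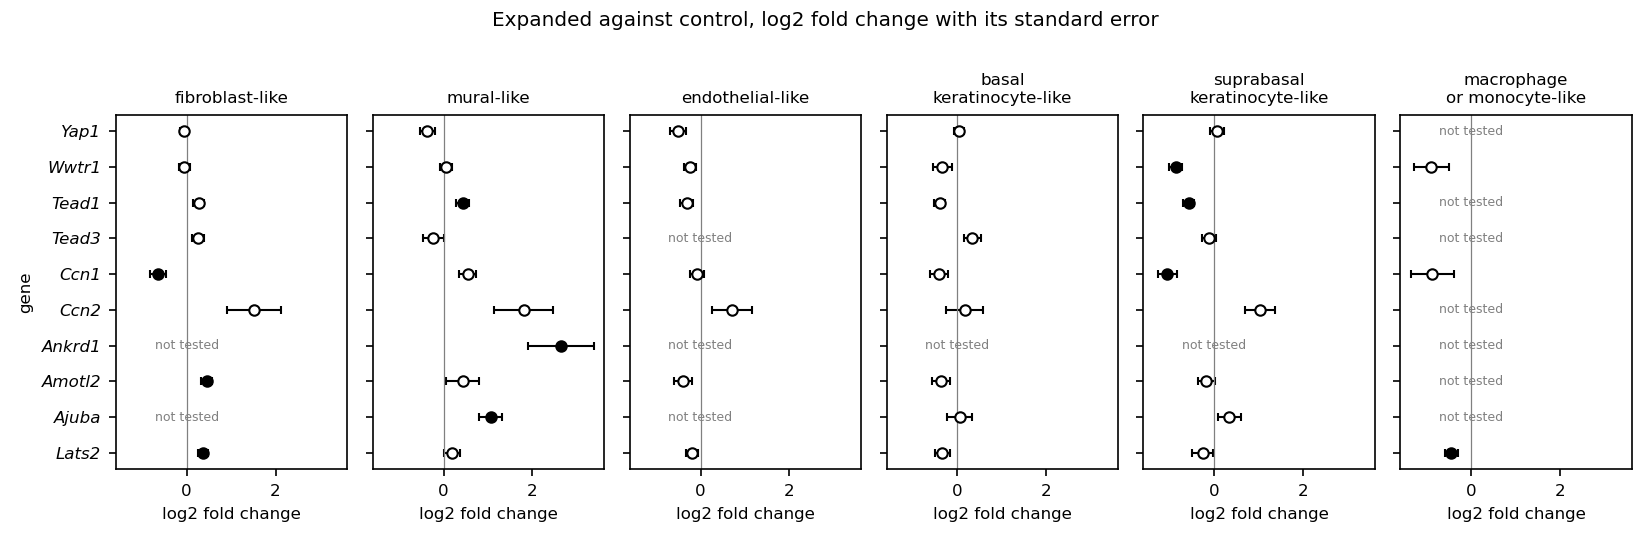
Log2 fold change of expanded over control with its standard error (horizontal axis, log2 units) for each member in 6 cell classes, filled where the adjusted p of edgeR was below 0.05, with members that did not pass the low-count filter marked as not tested. Ajuba, Ankrd1 and Tead1 are filled to the right in mural-like cells, Wwtr1, Tead1 and Ccn1 to the left in suprabasal keratinocyte-like cells, and fibroblast-like cells have filled points on both sides.

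In fibroblast-like cells, the matrix-producing cells of the dermis, the members moved in different directions. The target Ccn1 fell, the feedback genes Amotl2 and Lats2 rose, and the effectors Yap1 and Wwtr1 were not shown to differ. Of the 10 members, 8 passed the low-count filter, 2 of them were called higher and 1 lower. Over all 12114 genes tested in these cells, 17.0% were called higher and 16.8% lower, so the members' share of calls was close to the background. Libraries held 686 to 3006 control and 79 to 531 expanded fibroblast-like cells.

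Yap1 averaged 54.7 ± 8.47 normalised CPM in control and 52.3 ± 7.42 in expanded fibroblast-like libraries (SD, n = 5 each), a log2 fold change of −0.06 (SE 0.10). Wwtr1 averaged 158 ± 17.5 and 151 ± 17.3 normalised CPM, a log2 fold change of −0.05 (SE 0.12). Both differences were smaller than the spread between libraries. Tead1 had 97.5 ± 12.7 against 117 ± 14.0 normalised CPM (log2 fold change 0.27 with SE 0.12, edgeR adjusted p = 0.101), and it was higher in 4 of 5 day-and-round pairs. Tead3 had 12.1 ± 1.19 against 14.8 ± 3.53 normalised CPM (log2 fold change 0.25 with SE 0.14, edgeR adjusted p = 0.198).

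Ccn1 was, in fibroblast-like control libraries, 1083 and 995 normalised CPM on day 1, 1169 and 856 on day 2 and 1399 on day 4. In the expanded libraries it was 988 and 737 on day 1, 683 and 433 on day 2 and 686 on day 4. The expanded library was the lower of the pair in 5 of 5 pairs, although the groups overlapped, with an expanded day 1 library above 1 control library of day 2. The mean fell from 1101 ± 203 to 705 ± 197 normalised CPM, 0.635-fold (log2 fold change −0.65, SE 0.18, edgeR adjusted p = 0.0171). Leaving out the day 4 control library gave edgeR adjusted p = 0.0689, and leaving out its expanded partner gave 0.0728, with a log2 fold change of −0.56 in both.

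The makeup of the class differed between arms beside this fall. Fibroblast-like cells came from 4 clusters, numbered here by size, and 36.9% of control but 4.66% of expanded cells were in cluster 0, while the cluster led by Cadps, Igfbp2 and Mme (cluster 2) held 21.7% of control and 58.8% of expanded cells. Within cluster 2 alone, an alternative added after the data were seen, Ccn1 averaged 690.1 ± 211 normalised CPM in control and 700.1 ± 146 in expanded libraries (log2 fold change 0.05, SE 0.16, edgeR adjusted p = 0.847). The fall of Ccn1 was measured over the class, and no difference was shown within cluster 2, which held most expanded cells. No values within clusters 0, 1 and 13 are given here, and the part of the makeup of the class in the fall was not tested. In the 2 unnamed stromal clusters, Ccn1 had a log2 fold change of 0.18 in the cluster led by Fmod and Coch (cluster 4) and of 0.50 in the cluster led by Lrrc15 and Foxd1 (cluster 9), from 932 ± 110.3 to 1343 ± 444 normalised CPM (edgeR adjusted p = 0.129).

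Amotl2 was, in fibroblast-like control libraries, 26.5 and 30.4 normalised CPM on day 1, 30.7 and 40.8 on day 2 and 37.5 on day 4. The expanded libraries had 38.5 and 48.4 on day 1, 48.9 and 43.2 on day 2 and 44.7 on day 4. All 5 pairs were higher in the expanded arm, and the groups overlapped at the lowest expanded library only. The mean rose from 33.2 ± 5.85 to 44.8 ± 4.24, 1.36-fold (log2 fold change 0.45, SE 0.12, edgeR adjusted p = 0.0166). Within cluster 2 it rose as well, from 35.8 ± 8.44 to 50.6 ± 5.64 (log2 fold change 0.51 with SE 0.16, edgeR adjusted p = 0.0321), and over the 10805 genes tested there 14.1% were called higher and 12.9% lower. The rise was not called with finer clustering (0.33, edgeR adjusted p = 0.107), and in cluster 4 the values ran the other way, 88.0 against 56.1 normalised CPM (log2 fold change −0.63, edgeR adjusted p = 0.192).

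Lats2 was 62.9 and 53.3 normalised CPM on day 1, 43.5 and 52.7 on day 2 and 38.1 on day 4 in fibroblast-like control libraries. In expanded libraries it was 71.0 and 65.9 on day 1, 68.8 and 82.6 on day 2 and 41.3 on day 4. Each expanded library was above its partner, but day 4 was the lowest library in both arms. The mean rose from 50.1 ± 9.62 to 65.9 ± 15.2, 1.29-fold (log2 fold change 0.37, SE 0.12, edgeR adjusted p = 0.0369). This call was near the threshold: in edgeR fits leaving out a control library the adjusted p was 0.0860 without day 1 round 2, 0.0972 without day 2 round 1 and 0.0604 without day 2 round 2, and leaving out an expanded library it was 0.0514 without day 1 round 1, 0.0707 without day 2 round 1 and 0.0855 without day 2 round 2. Finer clustering (log2 fold change 0.24), cells thinned to 2000 UMIs (0.24) and no low-count filter (0.31) also ended it, with edgeR adjusted p = 0.198, 0.342 and 0.125.

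Ccn2, often used with Ccn1 as a readout of YAP/TAZ, had higher but very uneven values in the expanded arm. Control fibroblast-like libraries had 23.3 and 72.7 normalised CPM on day 1, 38.9 and 42.1 on day 2 and 51.7 on day 4. Expanded libraries had 145 and 139 on day 1, 274 and 23.5 on day 2 and 74.2 on day 4. The expanded day 2 round 2 library was at the bottom of the control range and the others were above all controls; that library held 79 fibroblast-like cells, of which 13 carried the 37 Ccn2 UMIs. The means were 45.8 ± 18.2 and 131 ± 94.4 (log2 fold change 1.51 with SE 0.61, edgeR adjusted p = 0.0942), and without that library the log2 fold change was 1.74 with edgeR adjusted p = 0.0188. Ankrd1 and Ajuba did not pass the filter: Ankrd1 had 9 UMIs in 9640 control cells and 0 in 1632 expanded cells, where a count of 0 allows up to 3, and Ajuba averaged 0.909 and 0.99 normalised CPM. Markers of other cells moved in this class: 7 neutrophil markers summed to 1.61 to 6.74 normalised CPM in control and 18.4 to 166 in expanded libraries, and 13 mural markers to 427 to 955 and 111 to 273. Basal keratinocyte markers summed to 26.6 to 52.0 in control and 33.1 to 192 in expanded libraries, with 3 of 7 called higher. Neutrophil-like cells themselves had a mean of 9.82 CPM of Ccn2 in 4 expanded libraries (range 0 to 32.1), and the part of these cell types in the members' values was not tested.

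Hashtags tied 41.4% of the fibroblast-like cells of the 8 hashed libraries to a mouse, which allowed sums per animal, although mice of an arm and round still shared a tube. In 14 control and 8 expanded mice with at least 20 such cells, Ccn1 ran from 571 to 1649.9 normalised CPM in control mice (median 1013) and from 315 to 1128 in expanded mice (median 706). It fell on this scale too (log2 fold change −0.79, SE 0.19, edgeR adjusted p = 0.00211). Ccn2 ran from 8.16 to 149.6 (median 29.5) in control and from 43.8 to 155 (median 100.3) in expanded mice and was called higher (1.39, SE 0.39, edgeR adjusted p = 0.00770). The 8 expanded mice were part of 14 hashed ones, and 3 of them were of day 2, against 7 control mice of day 2. The low expanded library of day 2 round 2, at 23.5 normalised CPM of Ccn2 in 79 cells, may therefore have little or no part in these per-mouse values. Lats2 was called higher (0.40, SE 0.13, edgeR adjusted p = 0.0105), but the mice of the arms overlapped widely. It ran from 32.7 to 70.6 (median 41.5) in control and from 30.5 to 71.7 (median 45.7) in expanded mice. The means were close, at 45.1 ± 12.5 and 49.1 ± 13.8 normalised CPM. Amotl2, with a log2 fold change of 0.56 (SE 0.27), was not called (edgeR adjusted p = 0.100). These per-mouse calls stand beside a background of 25.5% of 7751 genes called higher and 20.9% lower.

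Within the unnamed stromal clusters few members were called. In cluster 4, Tead1 fell from 126 ± 5.15 to 97.0 ± 9.91 normalised CPM (log2 fold change −0.39 with SE 0.10, edgeR adjusted p = 0.0304), against 5.36% of 9766 genes called higher and 5.73% lower. That is opposite in sign to its value in fibroblast-like cells. In cluster 9 edgeR called none of the members, where 3.15% of 9790 genes were called higher and 3.12% lower, and Ccn2 had 167 ± 87.9 against 420.0 ± 211 normalised CPM (log2 fold change 1.38, edgeR adjusted p = 0.241).

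Mural-like cells are the pericytes and smooth muscle cells that wrap vessels and contract. Here the members that differed were all higher in the expanded arm: Ajuba and Ankrd1, both YAP/TAZ targets, and the partner Tead1. All 10 members passed the filter, 3 were called higher and 0 lower, and over the 7244 genes tested 9.12% were called higher and 11.1% lower. The libraries held 55 to 245 control and 50 to 73 expanded mural-like cells, so these values rest on far fewer cells than those of fibroblast-like cells.

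Ajuba was 16.5 and 11.3 normalised CPM on day 1, 8.49 and 11.3 on day 2 and 10.2 on day 4 in mural-like control libraries. The expanded libraries had 40.0 and 24.1 on day 1, 19.7 and 18.8 on day 2 and 20.3 on day 4. Every expanded library was above every control library, and the expanded day 1 round 1 library stood highest. The mean rose 2.08-fold, from 11.6 ± 2.99 to 24.6 ± 8.86 (log2 fold change 1.06, SE 0.26, edgeR adjusted p = 0.0107). Its 49 UMIs in control came from 40 of 739 cells and its 90 UMIs in expanded libraries from 62 of 320 cells, with at most 5 in a cell, at median depths of 5384 and 10097 UMIs per cell. In macrophage or monocyte-like cells, taken as background, 2 of 2637 control and 8 of 2390 expanded cells had an Ajuba UMI, at median depths of 6182 and 11832. The call held in every alternative run, with a log2 fold change of 0.89 to 1.13 when a library was left out.

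Ankrd1 was listed at 0 in both day 1 control mural-like libraries, at 19.8 and 5.12 normalised CPM on day 2 and at 2.05 on day 4. In the expanded libraries it was 31.7 and 39.0 on day 1, 36.1 and 40.2 on day 2 and 0 on day 4. The 4 expanded libraries of days 1 and 2 were above all controls, and the expanded day 4 library had no Ankrd1 UMI in 73 cells, where a count of 0 allows up to 3.10 CPM. The mean rose from 5.39 ± 8.32 to 29.4 ± 16.8, 6.23-fold (log2 fold change 2.64, SE 0.74, edgeR adjusted p = 0.0337). Few cells carried these counts: 6 of 739 control cells held 15 UMIs and 10 of 320 expanded cells held 103, while macrophage or monocyte-like cells had 1 UMI in 2637 control cells and 0 in 2390 expanded cells. In the expanded libraries of day 1 a cell with 19 UMIs supplied all of round 1 and another supplied 19 of the 21 of round 2, so the library values rest on single cells. Of the 16 mural-like cells with Ankrd1, 12 also had a Ccn2 UMI, against 10.3% of all mural-like cells.

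The Ankrd1 call in mural-like cells was fragile. Blocking on pairs of libraries gave a log2 fold change of 2.63 with edgeR adjusted p = 0.0625, and DESeq2 gave 2.72 with adjusted p = 0.155. In edgeR fits leaving out a control library the adjusted p was 0.0636 and 0.0554 without either day 1 library and 0.102 without day 2 round 2. Leaving out an expanded library it was 0.0809 and 0.0681 for day 1 and 0.0590 and 0.0818 for day 2. The log2 fold change stayed between 2.18 and 3.32 in these fits. Over all cells, 97 cells held 363 Ankrd1 UMIs, of which 158 were in an unnamed, shallow cluster led by Rarres2, Ctsk and Dpt with a median of 1681 UMIs per cell, 117 of them from control and 41 from expanded libraries.

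Tead1 was 94.1 and 90.5 normalised CPM on day 1, 67.9 and 84.0 on day 2 and 69.6 on day 4 in mural-like control libraries. In expanded libraries it was 118 and 109.5 on day 1, 120.3 and 121 on day 2 and 84.2 on day 4. All 5 pairs were higher in the expanded arm, and the groups overlapped only at the expanded day 4 library. The mean rose from 81.2 ± 12.0 to 111 ± 15.4, 1.35-fold (log2 fold change 0.43, SE 0.14, edgeR adjusted p = 0.0398). Leaving out any of the 10 libraries ended this call (log2 fold change 0.37 to 0.48, edgeR adjusted p = 0.0590 to 0.106), as did DESeq2 (0.43, adjusted p = 0.109) and the absence of a low-count filter (0.41, edgeR adjusted p = 0.131).

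Ccn1 and Ccn2 were also higher in most expanded mural-like libraries but missed the threshold. Ccn1 was 268, 308, 334, 222 and 327 normalised CPM in control libraries, in order of day and round, and 577, 548, 448, 359 and 257 in expanded libraries. The day 4 pair ran against the others (log2 fold change over all pairs 0.54, SE 0.19, edgeR adjusted p = 0.0541). Without the control library of day 4 the log2 fold change was 0.76 with edgeR adjusted p = 0.0133, and without the expanded library of day 4 it was 0.77 with edgeR adjusted p = 0.0138. Ccn2 was 9.91, 58.8, 526, 128 and 23.9 normalised CPM in control and 258, 351, 629.8, 410.0 and 98.7 in expanded libraries, higher in 5 of 5 pairs (log2 fold change 1.80, SE 0.67, edgeR adjusted p = 0.107). In the high control library, day 2 round 1, a single cell held 161 of 186 Ccn2 UMIs, 86.6%, and without that library the log2 fold change was 2.45 with edgeR adjusted p = 0.0101.

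The other members of mural-like cells were not called. Yap1 had 92.1 ± 26.2 against 71.5 ± 14.8 normalised CPM (log2 fold change −0.37 with SE 0.17, edgeR adjusted p = 0.125). Wwtr1 had 176 ± 21.4 against 184 ± 43.5, Tead3 39.1 ± 6.61 against 35.0 ± 14.5, Amotl2 22.4 ± 5.81 against 33.6 ± 26.0 and Lats2 55.3 ± 14.4 against 61.4 ± 12.9 normalised CPM. Summed levels of 8 fibroblast markers in mural-like libraries ran from 659 to 26881 normalised CPM in control and from 1058 to 8682 in expanded libraries, and 0 of the 6 tested were called by edgeR. Endothelial markers summed to 17.0 to 216 and 79.8 to 424, with 1 of 5 tested called higher, and neutrophil markers to 0 to 3.40 and 5.36 to 27.1, with no overlap for the latter. Basal keratinocyte markers summed to 22.6 to 64.5 and 25.5 to 90.9, and the 1 tested was not called. Ajuba itself averaged 32.3 normalised CPM in basal keratinocyte-like control libraries and under 1 in fibroblast-like cells. The part of these cells in the members' values was not tested.

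**Figure D3:**
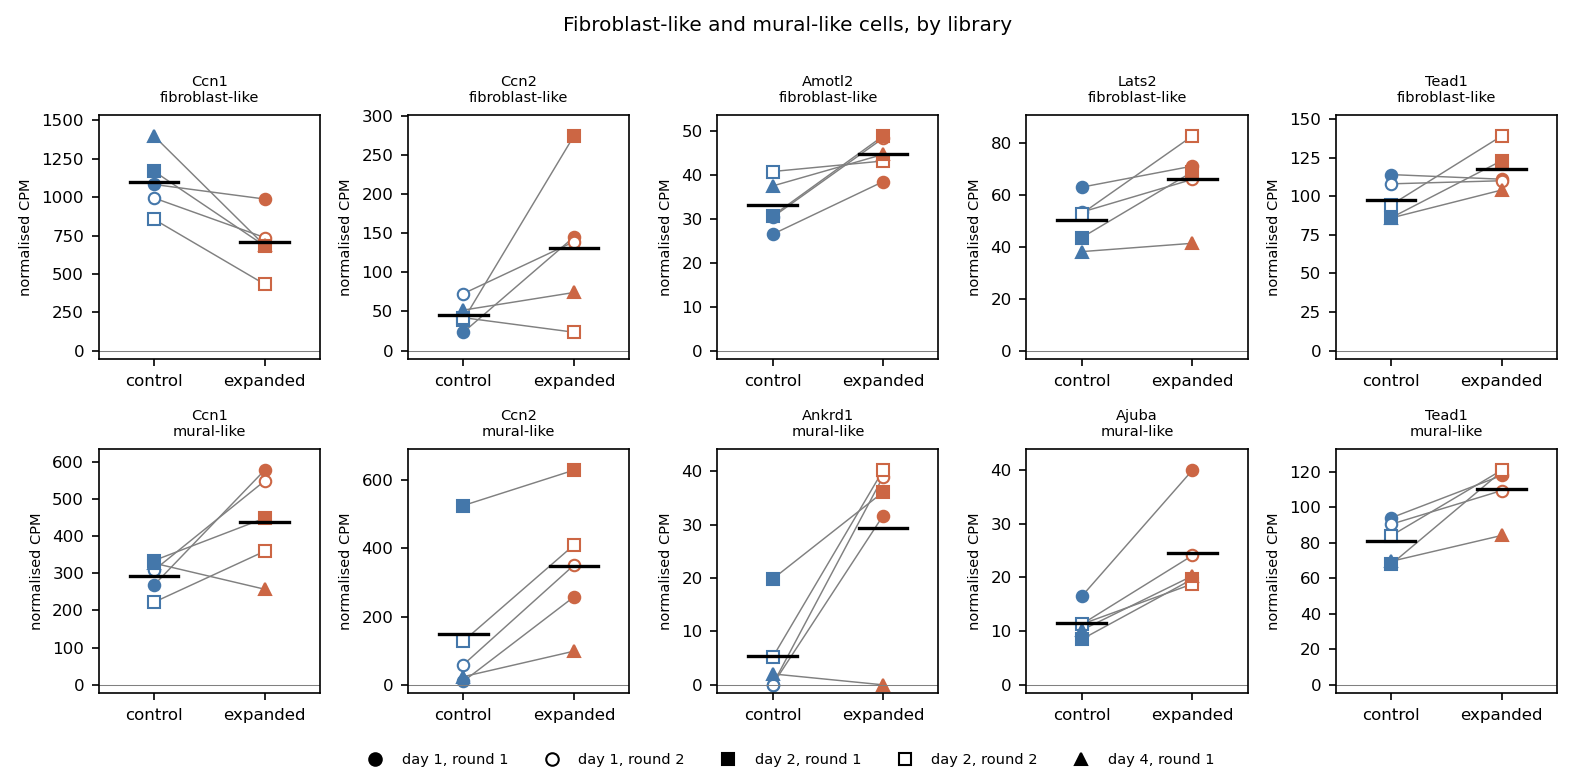
Normalised CPM in each library of members in fibroblast-like cells (upper panels: Ccn1, Ccn2, Amotl2, Lats2, Tead1) and mural-like cells (lower panels: Ccn1, Ccn2, Ankrd1, Ajuba, Tead1), with control on the left and expanded on the right of each panel. Circles are day 1, squares day 2 and triangles day 4, filled for round 1 and open for round 2, lines join libraries of the same day and round and black bars are means; all 5 lines fall for Ccn1 in fibroblast-like cells, from a mean of 1101 to 705, and all 5 rise for Ajuba in mural-like cells, from 11.6 to 24.6.

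Suprabasal keratinocyte-like cells, a class whose name is uncertain, showed lower values of an effector, a partner and a target. Wwtr1, Tead1 and Ccn1 fell, and Yap1 was not shown to differ. Of the 10 members 9 were tested, with 0 called higher and 3 lower, against 8.94% of 10144 genes called higher and 9.37% lower. The class was 1 cluster led by Defb6, Ly6d, Krt79, Krtdap and Krt10, which include hair-canal and barrier genes. A share of 0.857 of the suprabasal markers and of 1.00 of the basal markers were at least 2-fold higher in it than in other cells, so it also holds basal features. Under finer clustering 1617 of its 2409 cells fell into clusters named basal keratinocyte-like and 275 into clusters named sebaceous-like. A further 516 kept the name, so the class name did not survive that alternative.

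Wwtr1 was 123 and 122 normalised CPM on day 1, 77.9 and 66.5 on day 2 and 94.8 on day 4 in suprabasal control libraries. In expanded libraries it was 51.9 and 59.4 on day 1, 60.1 and 49.1 on day 2 and 44.1 on day 4. Every expanded library was below every control library. The mean fell 0.546-fold, from 96.9 ± 25.6 to 52.9 ± 6.85 (log2 fold change −0.87 with SE 0.15, edgeR adjusted p = 0.00212), and the call held in every alternative that could be fitted.

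Tead1 was 47.8 and 54.2 normalised CPM on day 1, 36.3 and 39.0 on day 2 and 53.6 on day 4 in suprabasal control libraries, and 34.4, 30.8, 28.4, 35.6 and 29.2 in expanded libraries in the same order. The groups did not overlap, though the highest expanded library lay just under the lowest control. The mean fell 0.667-fold, from 46.2 ± 8.24 to 31.7 ± 3.19 (log2 fold change −0.58, SE 0.13, edgeR adjusted p = 0.00949). The edgeR adjusted p was 0.0530 without the control library of day 4, 0.0510 without the expanded library of day 4 and 0.269 with cells thinned to 2000 UMIs (log2 fold change −0.45).

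Ccn1 was 313, 335, 291, 161 and 314 normalised CPM in suprabasal control libraries, in order of day and round, and 196, 159, 119, 55.8 and 154 in expanded libraries. Each expanded library was below its partner, and the groups overlapped because the control library of day 2 round 2 stood apart from the other controls. The mean fell 0.481-fold, from 283 ± 69.8 to 137 ± 52.8 (log2 fold change −1.06 with SE 0.21, edgeR adjusted p = 0.00740), and the call held in every alternative that could be fitted. Ccn2 values ran the other way, with 13.8 ± 8.54 against 25.6 ± 6.89 normalised CPM (log2 fold change 1.03 with SE 0.34, edgeR adjusted p = 0.0598). It was higher in 4 of 5 pairs, the day 4 pair being the exception, and without the control or the expanded library of day 4 the log2 fold change was 1.52 with edgeR adjusted p = 0.00417 or 0.00446. DESeq2 called it as well (1.08, adjusted p = 0.0111).

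Fibroblast markers moved with these falls. The sum of 8 fibroblast markers in suprabasal keratinocyte-like cells was 8868, 3329, 1872, 376 and 597 normalised CPM in control and 571, 156, 35.8, 11.4 and 101 in expanded libraries; 5 of the markers were tested, all 5 were called lower and none was at 0. In fibroblast-like cells themselves the same sum was 127428 ± 40035 CPM in control and 53477 ± 25265 in expanded libraries. The sum of 376 in the control library of day 2 round 2 lay within the expanded range, and its partner had 11.4. In that pair Ccn1 was 161 against 55.8 normalised CPM, Wwtr1 66.5 against 49.1 and Tead1 39.0 against 35.6. In the day 4 pair, with sums of 597 and 101, Ccn1 was 314 against 154, Wwtr1 94.8 against 44.1 and Tead1 53.6 against 29.2. Other markers moved as well: the basal keratinocyte markers of this class summed to 11259 to 14528 normalised CPM in control and 14782 to 18379.7 in expanded libraries, with 3 of 7 called higher, and the neutrophil markers to 0 to 19.8 and 10.6 to 1497. The marker sums differed within these pairs too, and the part of fibroblast, basal keratinocyte or neutrophil RNA in the members' values was not tested. For the members not called, Yap1 was 64.9 against 63.7 normalised CPM (log2 fold change 0.06, SE 0.15), Tead3 15.4 against 14.8, Amotl2 22.0 against 18.3, Ajuba 23.4 against 27.2 and Lats2 9.68 against 9.25.

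**Figure D4:**
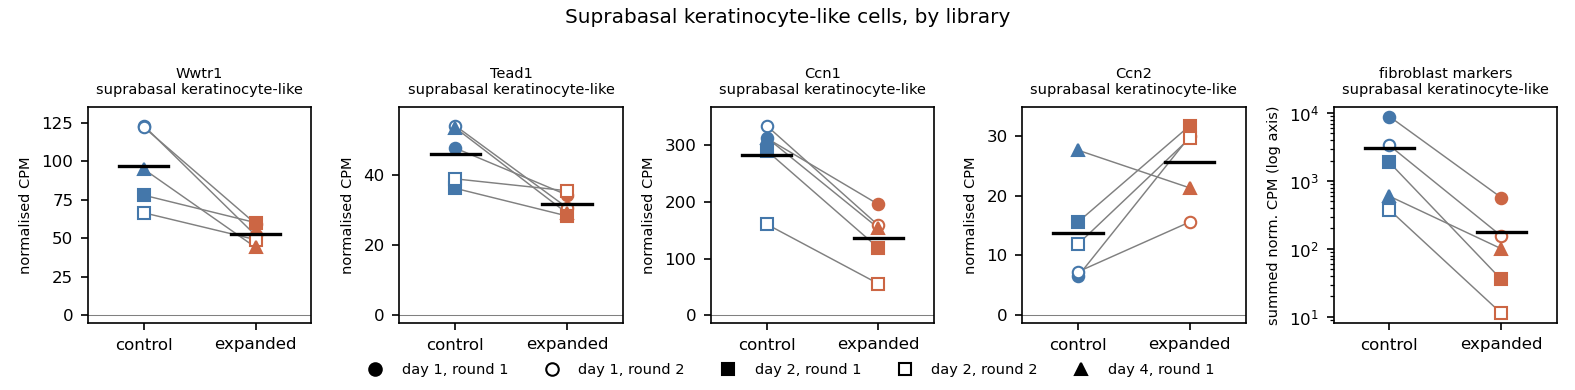
Normalised CPM in each suprabasal keratinocyte-like library of Wwtr1, Tead1, Ccn1 and Ccn2 and, on a log axis, of the sum of 8 fibroblast markers, with control on the left and expanded on the right; symbols give the day (circle 1, square 2, triangle 4), filled for round 1 and open for round 2, lines join the libraries of a day and round and black bars are means. All 5 lines fall for Wwtr1, Tead1, Ccn1 and the fibroblast markers. The control library of day 2 round 2, with a marker sum of 376, has the lowest control value of Wwtr1 and Ccn1 but not of Tead1.

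Basal keratinocyte-like cells gave no call. The class was 1 cluster led by Krt24, Lhx2 and Krt15, genes also known from the hair follicle bulge, and the control library of day 2 round 1 had 19 such cells and was left out. Of 9 members tested, edgeR called 0 higher and 0 lower, against 1.28% of 9619 genes called higher and 0.697% lower, while 1884 genes had an unadjusted p below 0.05. Ccn2, whose control level was highest in these cells, was 331 ± 214 normalised CPM in 4 control and 327 ± 72.8 in 5 expanded libraries (log2 fold change 0.16, edgeR adjusted p = 0.879). Control libraries ran from 158 to 625, and the standard error of the log2 fold change was 0.42.

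Tead1 was 52.2, 60.3, 55.1 and 55.9 normalised CPM in the basal control libraries and 40.2, 45.2, 35.3, 38.8 and 48.0 in the expanded ones. The groups did not overlap, a trait whose share over all genes is not given, and the difference was not called (log2 fold change −0.40, SE 0.13, edgeR adjusted p = 0.107). Finer clustering put 1617 of the cells called suprabasal above into this class. There, Tead1 (−0.49, edgeR adjusted p = 0.0203) and Wwtr1 (−0.54, edgeR adjusted p = 0.0439) were called lower, in a class that now mixed both sets of cells. Many more genes were called in that fit than in the main one. Without finer clustering, Wwtr1 had 91.4 against 66.2 and Lats2 24.9 against 18.9 normalised CPM, lower in 4 of 4 pairs each, and Tead3 had 19.1 against 23.5, higher in 4 of 4. Ccn1 had 1017 ± 232 against 797 ± 215 normalised CPM (log2 fold change −0.42, edgeR adjusted p = 0.280). It was called without a low-count filter (−0.38, edgeR adjusted p = 0.0426), where more genes were called than in the main fit. Yap1 had 70.1 against 68.9 (log2 fold change 0.03, SE 0.11) and Ajuba 32.3 against 32.7 normalised CPM (0.05, SE 0.28). Markers of other cells differed beside these values: fibroblast markers summed to 216 to 7663 normalised CPM in control and 32.9 to 738 in expanded libraries, and mural markers to 166 to 299 and 92.9 to 145, with no overlap for the latter. Their part was not tested.

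In endothelial-like cells, which line the blood vessels and carried the most Wwtr1 with the lymphatic class, edgeR called 0 of 7 tested members higher and 0 lower. Over the 9392 genes tested 5.61% were called higher and 6.90% lower, and 2663 had an unadjusted p below 0.05. Yap1 was 82.9, 79.6, 132, 71.2 and 82.0 normalised CPM in control and 55.6, 69.9, 71.3, 39.1 and 62.1 in expanded libraries. It was lower in 5 of 5 pairs, and the groups overlapped only narrowly at the control library of day 2 round 2 (log2 fold change −0.51, SE 0.18, edgeR adjusted p = 0.0843). When pairs of libraries were blocked, Yap1 was called lower (−0.53, edgeR adjusted p = 0.0131), and also without a low-count filter (−0.48, edgeR adjusted p = 0.0301). The shares above are those of the main fit, and more genes were called in this class without the filter.

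Wwtr1 in endothelial-like cells was lower in 5 of 5 pairs but not called, with 425 ± 43.2 against 359 ± 41.0 normalised CPM (log2 fold change −0.24, edgeR adjusted p = 0.230). Ccn1 had 165 ± 30.8 and 161 ± 56.9 normalised CPM (log2 fold change −0.08, SE 0.16). Ccn2 was 36.6, 18.0, 16.5, 17.6 and 26.8 normalised CPM in control and 14.4, 20.1, 28.9, 50.2 and 108 in expanded libraries. Only the first pair was lower in the expanded arm, and the day 4 expanded library was the highest (log2 fold change 0.70, edgeR adjusted p = 0.354). Tead1 had 59.8 against 49.1, Amotl2 39.2 against 27.8 and Lats2 60.8 against 53.6 normalised CPM. Markers of other cells differed in this class as well. Fibroblast markers summed to 1009 to 2273 normalised CPM in control and 22.3 to 1729 in expanded libraries, with 2 of 6 tested called lower. Mural markers summed to 168 to 266 and 75.9 to 155, with 1 of 3 lower, and basal keratinocyte markers to 374 to 502 and 256 to 421, with 1 of 6 lower. Neutrophil markers summed to 1.52 to 4.88 and 4.05 to 26.2. Their part in the members' values was not tested.

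Of the 10 members, macrophage or monocyte-like cells expressed mainly Lats2, and 3 members passed the filter. Lats2 was 92.3, 96.3, 82.1, 54.5 and 49.2 normalised CPM in control and 62.7, 69.7, 59.8, 44.0 and 34.9 in expanded libraries. It was lower in each expanded library than in its partner, while both arms had their lowest value on day 4 and the groups overlapped. The mean fell from 74.9 ± 21.7 to 54.2 ± 14.3, 0.732-fold (log2 fold change −0.45, SE 0.15, edgeR adjusted p = 0.0472), so 0 members were called higher and 1 lower, against 11.2% and 13.5% of 9897 genes. The cells of the arms came from different clusters, cluster 7 holding 84.4% of control and cluster 6 holding 92.2% of expanded cells. Ccn1, at 21.5 ± 13.1 against 12.6 ± 11.6, and Wwtr1, at 5.81 ± 2.96 against 3.62 ± 3.15 normalised CPM, were not called. The summed fibroblast markers there ran from 332 to 3562 in control and from 34.8 to 309.8 in expanded libraries, and the neutrophil markers from 40.7 to 124 and from 338 to 1961. The part of other cells in these values was not tested.

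The Lats2 call in macrophage or monocyte-like cells was lost in 8 of 10 edgeR fits leaving out a library. The adjusted p was 0.0988, 0.108, 0.130 and 0.140 without the control libraries of day 1 round 1, day 1 round 2, day 2 round 1 and day 4. It was 0.0777, 0.0737, 0.114 and 0.131 without the expanded libraries of day 1 round 1, day 1 round 2, day 2 round 2 and day 4. Per mouse, with 13 control and 12 expanded animals, Lats2 fell from 67.2 ± 25.5 to 44.3 ± 14.2 normalised CPM (log2 fold change −0.50 with SE 0.10, edgeR adjusted p = 2.65e-04), where 24.6% of 7108 genes were called higher and 23.6% lower. Ccn1 was called lower per mouse, from 20.3 ± 14.9 to 6.22 ± 6.74 (−1.50, SE 0.42, edgeR adjusted p = 0.00470).

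Whether the difference between arms changed with the day was asked by an arm-by-day term in fibroblast-like, endothelial-like, suprabasal keratinocyte-like and macrophage or monocyte-like cells. It was not run in mural-like cells, where Ankrd1 and Ccn1 departed on day 4. Day 4 had 1 library per arm, so this test rests on few samples, and edgeR called no member after adjustment. Over all genes tested the share called was 0% of 12114 in fibroblast-like, 0.0106% of 9392 (1 gene) in endothelial-like, 0% of 10144 in suprabasal keratinocyte-like and 0% of 9897 in macrophage or monocyte-like cells, with 525, 318, 467 and 136 genes at an unadjusted p below 0.05. For Ccn2 in endothelial-like cells the log2 fold change was −0.53 on day 1, 1.15 on day 2 and 2.00 on day 4 (edgeR unadjusted p = 0.00194, adjusted p = 0.910). In suprabasal keratinocyte-like cells Ccn2 ran the other way, with 1.70, 1.29 and −0.37 (edgeR unadjusted p = 0.00635, adjusted p = 0.782). For Ccn1 in fibroblast-like cells the values were −0.27, −0.86 and −1.03 (edgeR unadjusted p = 0.231).

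The other genes of the pathway were read from 3 further lists. The core list holds Hippo kinases, their scaffolds and the remaining TEAD and Vestigial-like genes. In fibroblast-like cells 23 of its 26 genes were tested, 3 were called higher and 7 lower, and the median log2 fold change was −0.26 against 0.01 over all genes tested. Over those 12114 genes, 17.0% were called higher and 16.8% lower. The scaffold gene Wwc1, whose product activates LATS kinases, rose from 0.592 ± 0.205 to 3.55 ± 1.71 normalised CPM (log2 fold change 2.38 with SE 0.38, edgeR adjusted p = 9.71e-04), with no overlap between groups but at a low level. Wwc1 was also high in expanded macrophage or monocyte-like cells, at 139 against 21.1 normalised CPM, and its part in the fibroblast-like counts was not tested. Tead2 rose from 5.99 to 10.8 normalised CPM (0.75, edgeR adjusted p = 0.0201), and Wtip, an Ajuba relative, rose from 37.5 ± 4.28 to 50.2 ± 5.69 (0.43, edgeR adjusted p = 0.00954). The upstream genes Fat4, a giant cadherin (14.0 against 6.36 normalised CPM, −1.15, edgeR adjusted p = 0.00736), Amot (5.19 against 3.07, −0.72, edgeR adjusted p = 0.0384) and Frmd6 (279.7 against 185, −0.60, edgeR adjusted p = 0.00199) fell.

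The list of further YAP/TAZ targets, known from signatures in cultured cells, had more genes called lower than higher in fibroblast-like cells. Of 17 genes 16 were tested, 1 was called higher and 5 lower, with a median log2 fold change of −0.25. In these cells 17.0% of all genes tested were called higher and 16.8% lower. Ptpn14, called lower, is in this list and in the core list and was counted in both. Dock5, a guanine exchange factor for Rac, rose from 2.27 to 5.62 normalised CPM (1.34, edgeR adjusted p = 0.00105). Tgfb2, a TGF-β ligand, fell from 142 ± 46.0 to 39.4 ± 14.0 (−1.82, edgeR adjusted p = 4.26e-04), the matrix gene Ccdc80 from 1148 ± 225 to 405 ± 166 (−1.51, edgeR adjusted p = 0.00145) and Crim1 from 48.2 to 34.5 (−0.47, edgeR adjusted p = 0.0290). Tgfb2 and Ccdc80 did not overlap between groups. Of 4 other CCN genes 3 were tested and 1 was called: Ccn3 rose from 32.3 ± 13.7 to 80.0 ± 43.3 normalised CPM (1.33, edgeR adjusted p = 0.00670), with no overlap between groups.

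The same lists in the other classes gave the following counts, beside shares over all genes of 9.12% higher and 11.1% lower in mural-like, 5.61% and 6.90% in endothelial-like, 1.28% and 0.697% in basal, 8.94% and 9.37% in suprabasal keratinocyte-like and 11.2% and 13.5% in macrophage or monocyte-like cells. The core list had 0 higher and 1 lower of 19 tested in mural-like, 0 and 1 of 21 in endothelial-like, 0 and 0 of 20 in basal, 1 and 5 of 20 in suprabasal keratinocyte-like and 1 and 7 of 16 in macrophage or monocyte-like cells. The further targets had 0 higher and 3 lower of 12, 0 and 3 of 10, 0 and 0 of 16, 1 and 4 of 15 and 3 and 2 of 10 in the same order. Their median log2 fold changes were −0.42, −0.37, −0.25, −0.33 and 0.17, against medians over all genes between −0.01 and 0.02.

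The members' calls can be set beside genes that respond to serum and to cell handling. The shares of all tested genes called higher and lower were 17.0% and 16.8% in fibroblast-like and 9.12% and 11.1% in mural-like cells. They were 5.61% and 6.90% in endothelial-like and 11.2% and 13.5% in macrophage or monocyte-like cells. In keratinocytes they were 8.94% and 9.37% in suprabasal and 1.28% and 0.697% in basal keratinocyte-like cells. Of 15 immediate early genes, which include Fos and Egr1 and are known to be induced by dissociation, edgeR called 1 higher and 6 lower in fibroblast-like, 7 lower in mural-like, 11 lower in endothelial-like, 6 lower in suprabasal keratinocyte-like, 10 lower in macrophage or monocyte-like and 0 in basal keratinocyte-like cells. Their summed level in fibroblast-like cells ran from 17212 to 22007 normalised CPM in control and from 12833 to 20999 in expanded libraries. In suprabasal keratinocyte-like cells it ran from 17578 to 35053 and from 14643 to 19636, and in mural-like cells from 27699 to 30741 and from 13834 to 29832. Ccn1 is itself induced as an immediate early gene, and the part of the lower immediate early genes in the values of Ccn1 was not tested. A list of 14 genes of serum response factor and actin, which share targets with YAP and TAZ, had 6 of 13 tested called higher and none lower in fibroblast-like cells, with summed levels of 3698 to 4707 in control and 5240.2 to 6772 in expanded libraries. In mural-like cells, where Ajuba, Ankrd1 and Tead1 were called higher, 2 of these 14 were higher and 1 lower, and the sums overlapped, at 27936 to 35123 and 23027 to 33196. In the other classes 1 of 11 was higher in endothelial-like and 4 of 12 were higher in macrophage or monocyte-like cells, and 1 of 13 was lower in basal and 3 of 10 in suprabasal keratinocyte-like cells.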

How the data were processed

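Single-cell libraries were made with the 10x Genomics 3' kit and mapped with Cell Ranger 6.1.2 to mm10, per the submitters' processing notes. The deposited matrices hold UMI counts per gene and cell, and hashtag counts per mouse for 8 of the 10 libraries. Of 55174 barcodes, 47251 met 3 limits (a minimum of 200 genes, a minimum of 500 UMIs and a mitochondrial share up to 10%), and 1763 were removed as doublets (Scrublet, 0.0584% to 2.97% per library, or 2 hashtags), leaving 45488 cells. Clustering (scanpy 1.11.5, 2000 variable genes, 30 principal components, 15 neighbours, Leiden resolution 1) was named from marker lists: a cluster needed at least 3 markers detected in 10% of its cells and 2-fold above other cells. Names were rebuilt here and may differ from the study's.

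Counts were summed per class and library, with at least 20 cells, and 6 classes with at least 4 libraries per arm were tested: fibroblast-like, mural-like, endothelial-like, basal and suprabasal keratinocyte-like and macrophage or monocyte-like cells. Lymphatic endothelial-like, T cell-like, dendritic-like and Schwann-like cells also had enough libraries but were not tested. The test was edgeR 4.0.16's quasi-likelihood test with its low-count filter, TMM normalisation, day as covariate and Benjamini-Hochberg adjustment over all genes tested, at an adjusted p of 0.05. Dermal papilla-like cells had too few libraries. Standard errors are the log2 fold change over the square root of F. Hashed mice were assigned with Seurat 5.3.0. The procedures were tested on simulated data.

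Libraries of the same day and round share a number through the labels, so they are pairs: deviations of paired libraries from their arm's mean correlated, in part through the shared day, at 0.0255 to 0.471 in fibroblast-like, 0.160 to 0.302 in mural-like, 0.0437 to 0.345 in endothelial-like, 0.219 to 0.408 in basal, 0.0436 to 0.392 in suprabasal keratinocyte-like and 0.00642 to 0.419 in macrophage or monocyte-like cells. The block of pairs in place of day was an alternative, with DESeq2 1.42.0 (as a test and for size factors), no low-count filter, 2000 UMIs per cell, at most 5% mitochondrial UMIs, Leiden resolution 2, sums per mouse and leaving out each library. Sums of single clusters were added after the data were seen. The members and lists were chosen with earlier results of these data known. All members are named; of the further pathway lists, up to 3 genes per list and direction with the largest log2 fold change among those called in fibroblast-like cells are named. Promoter sequences came from RefSeq and gene positions and exons from GENCODE M21 on GRCm38.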

Additional observations from a re-analysis of the deposited data

Results flagged for a closer look

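Among 102 sets of 4 or 5 libraries of an arm and class, 9 held a library whose gap to the rest was above Dixon's critical value (0.71 for 5 libraries), and chance gives about 1 in 20. In mural-like cells, Wwtr1 was 258 normalised CPM in the expanded library of day 1 round 2 against 146 to 178 in the other expanded ones, and Ajuba was 40.0 in the expanded library of day 1 round 1 against 18.8 to 24.1. In the control library of day 2 round 1, with 55 mural-like cells, Ccn2 was 526 against 9.91 to 128 in the other controls and Ankrd1 was 19.8 against 0 to 5.12; all 7 of its Ankrd1 UMIs came from 1 cell. Ankrd1 was 0 in the expanded library of day 4 against 31.7 to 40.2 in the other expanded libraries.

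Yap1 in endothelial-like cells reached 132 normalised CPM in 1 control library, day 2 round 1, against 71.2 to 82.9 in the other controls. Ccn1 in suprabasal keratinocyte-like cells was 161 in the control library of day 2 round 2 against 291 to 335. In macrophage or monocyte-like cells of the expanded library of day 1 round 1, Tead1 was 17.0 against 0 to 0.817 and Ccn2 44.3 against 0.230 to 1.05 in the other expanded libraries. There, 30 of 35 Tead1 UMIs (85.7%) were in 1 cell, and 88 of 91 Ccn2 UMIs (96.7%) were in 1 cell. The summed mural markers of these macrophage or monocyte-like cells were 726 normalised CPM in that library against 3.49 to 25.1 in the other expanded ones.

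Both Tead1 and Lats2 had every pair of libraries higher in the expanded arm in a class and every pair lower in another. The share of all genes with such a pattern is not given here. The basal keratinocyte-like values were not called (edgeR adjusted p = 0.107 for Tead1 and 0.279 for Lats2). Leaving out any of the 10 libraries ended the Tead1 call in mural-like cells. For Lats2, 6 of 10 such fits ended the call in fibroblast-like and 8 of 10 in macrophage or monocyte-like cells. The difference between the log2 fold changes of 2 classes was not tested. For Tead1 it was 0.83 between mural-like (0.43) and basal keratinocyte-like cells (−0.40) and 1.01 between mural-like and suprabasal keratinocyte-like cells (−0.58). For Lats2 it was 0.71 between fibroblast-like (0.37) and basal keratinocyte-like cells (−0.34) and 0.82 between fibroblast-like and macrophage or monocyte-like cells (−0.45).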

How the results depend on the processing

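The 46 tested member values were recomputed under each alternative that could be fitted, which gave 787 recomputed values in all. Of these, 682 kept direction and side of the threshold, 51 lost and 24 gained a call and 30 changed sign. Of the 10 called values, Ajuba in mural-like cells and Wwtr1 and Ccn1 in suprabasal keratinocyte-like cells kept call and direction in every alternative that could be fitted. The block of day-and-round pairs, beside ending Ankrd1 in mural-like cells (2.63) and giving Yap1 in endothelial-like cells (−0.53), changed no other member call, and it took basal keratinocyte-like calls from 190 to 622 genes. Finer clustering of suprabasal keratinocyte-like cells could not be fitted, since 1617 of their 2409 cells were then named basal keratinocyte-like. The cause of the shifts below was not tested, except that thinning leaves fewer UMIs and the cluster 2 fit fewer cells. The fits of clusters 4 and 9, unnamed clusters outside the fibroblast-like class, were set against its values and counted in the totals above. They describe other cells and not a dependence of the class on processing.

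Genes called went, with 2000 UMIs per cell, from 4096 to 2008 in fibroblast-like, 1462 to 465 in mural-like, 1175 to 358 in endothelial-like, 190 to 49 in basal, 1857 to 410 in suprabasal keratinocyte-like and 2444 to 1472 in macrophage or monocyte-like cells. The fits of the unnamed stromal clusters 4 and 9, whose cells lie outside the fibroblast-like class, gave 1083 and 613 calls. Without a low-count filter endothelial-like calls were 1834 and basal keratinocyte-like calls 835, and finer clustering gave 1229 basal keratinocyte-like calls. Leaving out a library gave 771 to 1337 calls in mural-like, 649 to 1139 in endothelial-like, 30 to 301 in basal, 1145 to 2123 in suprabasal keratinocyte-like and 1371 to 2785 in macrophage or monocyte-like cells.

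Members called higher in fibroblast-like cells (2) were 1 with thinning, finer clustering or cluster 2 alone and 1 to 2 without a library. Those called lower (1) were 0 in cluster 2 and 0 to 1 without a library. In the unnamed clusters 4 and 9, outside this class, 0 members were called higher, and in cluster 9 0 were called lower. Members called higher in mural-like cells (3) were 1 to 3 without a library. In endothelial-like cells 1 member was called lower with the block, and without a low-count filter 1 was called higher and 1 lower. In suprabasal keratinocyte-like cells 1 was called higher with DESeq2, without the filter and with thinning, and 0 to 1 without a library. In basal keratinocyte-like cells 1 was called lower without the filter and 2 with finer clustering. In macrophage or monocyte-like cells 1 was called higher without the filter, and those called lower (1) were 0 with thinning or a 5% mitochondrial limit and 0 to 1 without a library.

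Signs turned, in log2 fold change, for Yap1 in fibroblast-like cells in cluster 2 (0.03) and per mouse (0.16), and for Ccn1 there in cluster 2 (0.05). The unnamed clusters outside the class had signs opposite to its values for Yap1 in cluster 9 (0.09) and Ccn1 in clusters 4 (0.18) and 9 (0.50). In cluster 4 this also held for Tead1 (−0.39), Ccn2 (−0.21), Amotl2 (−0.63) and Lats2 (−0.31). Thinning turned Wwtr1 in mural-like cells (−0.07) and Yap1 (−0.22), Amotl2 (0.15) and Ajuba (−0.04) in suprabasal keratinocyte-like cells. Leaving out a library turned only values near 0: Wwtr1 in fibroblast-like (−0.14 to 0.02) and mural-like cells (−0.07 to 0.11), Ccn1 in endothelial-like cells (−0.20 to 0.04), Yap1 (−0.04 to 0.07), Ccn2 (−0.08 to 0.59) and Ajuba (−0.14 to 0.28) in basal and Yap1 (−0.04 to 0.15) in suprabasal keratinocyte-like cells. Ankrd1 had 118 UMIs in all mural-like cells.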
